A study of Mus musculus with 12 samples.

Results

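Bcl6 and 7 related repressor genes were followed in the cerebral cortex of mice that carry a point mutation in Tbl1xr1, a subunit of the NCoR corepressor complex. The set holds the BTB zinc finger repressors Bcl6, Bcl6b, Zbtb16, Zbtb7a, Zbtb7b and Zbtb33 and the BCL6 corepressor genes Bcor and Bcorl1. It is 8 of the 54232 gene identifiers in the deposited table, and 8 of 8 were among the 18016 genes that passed the filter on low counts. The set was built around Bcl6 because of its difference between mutant and wild-type mice in these libraries, over both sexes and in females. The genotype values of the 8 genes are therefore given as a description, without printed p-values. Which of them passed a p threshold by genotype is likewise only described. The comparison of females with males was not used to choose them.

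The tested mice were homozygous for the allele Tbl1xr1Y446C/Y446C (6 mice, 3 females and 3 males) and were set against 6 wild-type mice (3 females and 3 males). All 12 were C57BL/6J animals killed at 12 weeks, and 1 library of polyadenylated RNA was sequenced from the cortex of each. How the allele was made, and whether the mice were littermates, is not given in the sources used here. The mice are named by genotype, sex and the animal number in the labels.

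Proteins of this family pair through an amino-terminal BTB domain and bind DNA through carboxy-terminal zinc fingers. The BTB domain of Bcl6 carries a groove that takes up the corepressors NCoR and BCOR, and NCoR brings in the histone deacetylase HDAC3 together with TBL1X and TBL1XR1. Bcl6 is best known as the repressor that directs germinal centre B cells and follicular helper T cells, and in the developing mouse cortex it promotes neurogenesis by silencing Hes5 and other Notch-dependent genes.

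The Bcl6 locus lies on the minus strand of chromosome 16 (GRCm38, 23965052 to 23988852). Its start regions are shown because Bcl6 had the difference around which the set was built, and because Bcl6 and STAT proteins bind the same type of element. RefSeq start regions were on hand for 6 of the 8 genes, in 9 windows of 250 bases before an annotated transcript start. They were searched on both strands for TTCNNNGAA, a core of STAT and Bcl6 elements that reads the same on both strands. Capitals mark its matches in the following sequences, given 5′ to 3′ on the minus strand.
Bcl6 upstream start, chr16:23988853-23989102: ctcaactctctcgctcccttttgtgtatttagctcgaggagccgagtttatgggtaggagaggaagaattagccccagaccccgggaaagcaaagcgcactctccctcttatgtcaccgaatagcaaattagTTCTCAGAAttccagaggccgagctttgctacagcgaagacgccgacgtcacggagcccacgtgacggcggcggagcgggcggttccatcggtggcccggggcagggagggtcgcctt
Bcl6 internal start, chr16:23981284-23981533: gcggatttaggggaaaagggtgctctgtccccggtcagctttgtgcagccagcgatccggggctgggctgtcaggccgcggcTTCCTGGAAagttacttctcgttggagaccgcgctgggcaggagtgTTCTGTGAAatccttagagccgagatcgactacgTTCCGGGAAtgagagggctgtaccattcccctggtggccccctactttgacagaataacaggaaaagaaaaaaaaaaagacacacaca

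The window before the upstream start of Bcl6 held 1 match, TTCTCAGAA, which began 118 bases before the start. The window before the internal start held 3 matches, which began 168, 122 and 88 bases before it. The motif occurred in 7.02% of 32851 RefSeq windows of the same length, and 9 windows, 0.0274%, held 3 or more matches. Among the other genes of the set, each of the overlapping Bcor windows held the same single match and those of Zbtb7a, Zbtb7b, Zbtb33 and Bcorl1 held none. TCCTGCNA, the sequence bound by the Zbtb33 protein Kaiso, was in 0 of the 9 windows and in 4.03% of all windows, searched on both strands. The sequence CACGTG was searched as well and was in 6.02% of all windows. It was in the upstream Bcl6 window, where it began 60 bases before the start, and in the Bcorl1 window, but not in the others of the set. These are matches of letters and were not linked to any binding measurement.

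Sequencing depth limits 1 library. In 11 libraries 21238427 to 32669138 reads were assigned to genes (median 24712815), against 3748515 in female mutant 3. Mitochondrial genes took 31.6% of the counts in female mutant 3 and 5.23% to 10.4% in the others. The values of that mouse therefore carry wide counting errors, and each result below is given with and without it where it matters. A count of 0 corresponds to at most 0.0861 to 0.137 CPM in the 11 deeper libraries and 1.16 CPM in female mutant 3 (3 counts, for counting error only). CPM here means counts per 1000000 counts of tested genes after TMM scaling, and log2 fold changes come from edgeR with sex as a covariate.

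Bcl6 messenger RNA was higher in every mutant than in every wild-type library. It stood at 40.2, 45.3 and 44.7 CPM in female mutants 1, 3 and 6 and at 37.6, 36.4 and 36.7 CPM in male mutants 7, 10 and 27. The wild-type females 2, 4 and 5 had 32.3, 27.9 and 31.0 CPM, and the wild-type males 8, 12 and 13 had 30.4, 30.2 and 32.6 CPM. The lowest mutant was above the highest wild-type mouse, and the 3 female mutants were above the 3 male mutants. The means were 40.1 ± 4.02 CPM in mutants and 30.7 ± 1.69 CPM in wild-type mice (SD, n = 6 each), a ratio of 1.31 that was 1.27 without female mutant 3. These are cortex homogenates, so a change in the number of cells that express a gene and a change in RNA per cell cannot be told apart.

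**Figure D1:**
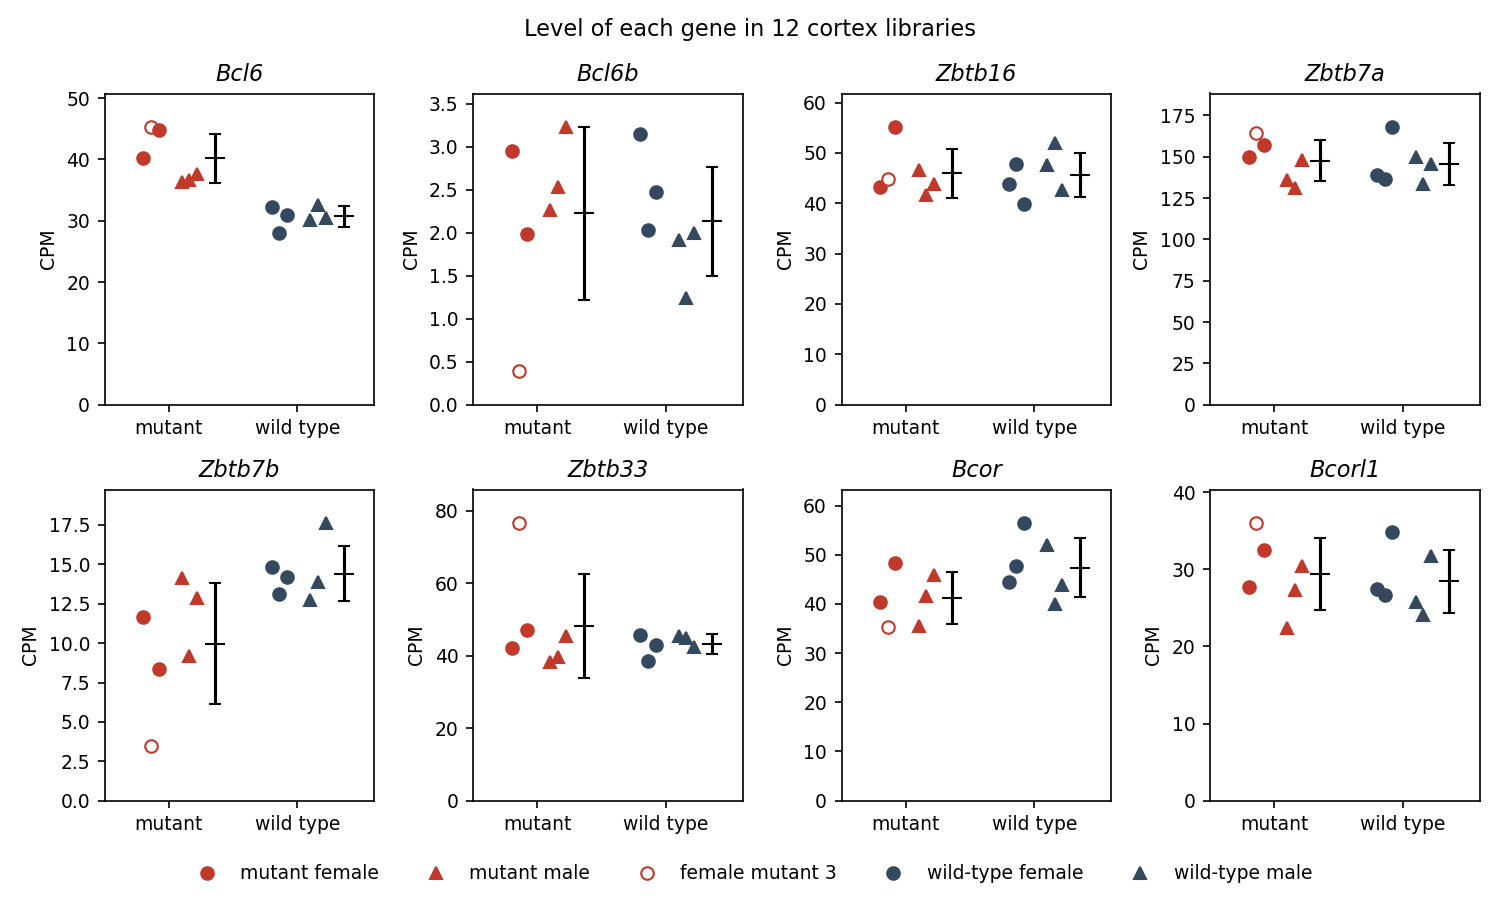
Expression of the 8 genes in CPM (vertical axes) in each library, with mutants in red at the left and wild-type mice in dark points at the right of each panel. Bars give the mean and SD of 6 mice, and the open circle is female mutant 3; the Bcl6 panel is the only panel of the 8 without overlap between genotypes.

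The log2 fold change of Bcl6 was 0.38 (SE 0.08), and 0.35 (SE 0.07) without female mutant 3. It stayed between 0.34 and 0.41 when each of the 12 libraries was left out in turn. In females alone it was 0.51 (SE 0.10), and in males alone 0.25 (SE 0.10). Scaling by library totals instead of TMM shifted the median of all genes in females to -0.21, and Bcl6 was then at 0.30 in females, or 0.51 above that median. In female mutant 3 the value rests on 117 counts, with an exact 95% interval of 37.5 to 54.3 CPM, for counting error only. Gm37419, an annotated gene on the other strand, shares 21 exon bases with Bcl6 and had 1 count in the 12 libraries together.

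In calls across all genes, Bcl6 depended on the test. With edgeR's quasi-likelihood test at an adjusted p of 0.05, 0 of the 8 genes were called by genotype, where 1 gene of all tested (0.00555%), Mpeg1, was called. At an unadjusted p under 0.05 that test held 2 of the 8 genes, Bcl6 and Zbtb7b, against 3.96% of all genes. Limma-voom called 0 of 8 (background 0.00555%), and DESeq2 called 1 of 8, Bcl6, against a background of 0.161%. Without female mutant 3 DESeq2 again called only Bcl6 of the 8, among 53 called genes of 18438. In females edgeR and limma-voom called 0 genes of all tested and DESeq2 called Bcl6 among 6 genes (0.0333%), and at an unadjusted p under 0.05 edgeR held 2 of the 8, Bcl6 and Zbtb7b, against 11.8%. In males edgeR called 0 genes and at an unadjusted p under 0.05 held 1 of the 8, Bcl6, against 2.78%; DESeq2 called 4 genes (0.0222%) and limma-voom 0, and 0 of the 8 were among them. Since the set was chosen on this contrast, these counts are not evidence for it. Of all tested genes, 79 (0.438%) had no overlap between the 6 mutants and 6 wild-type mice, 26 of them higher in mutants (0.144%) and 53 lower (0.294%), and of the 8 genes only Bcl6 was among the 79.

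Zbtb7b had the lowest mutant values relative to wild type in the set. The gene encodes ThPOK, which directs CD4 T cell development, and lies on chromosome 3 (GRCm38, 89377644 to 89394776, minus strand). It stood at 11.7, 3.48 and 8.38 CPM in female mutants 1, 3 and 6 and at 12.9, 14.1 and 9.19 CPM in male mutants 7, 10 and 27. The wild-type females 2, 4 and 5 had 14.8, 13.1 and 14.2 CPM, and the wild-type males 8, 12 and 13 had 17.6, 12.8 and 13.9 CPM. Of the mutants, 4 of 6 were below the lowest wild-type mouse, and male mutants 7 and 10 lay within the wild-type range. The means were 9.96 ± 3.85 CPM in mutants and 14.4 ± 1.75 CPM in wild-type mice (SD, n = 6 each).

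The log2 fold change of Zbtb7b was -0.48 (SE 0.19), and -0.38 (SE 0.13) without female mutant 3. The ratio of means was 0.691 with that mouse and 0.781 without it. Its value in female mutant 3 rests on 9 counts, with an exact 95% interval of 1.59 to 6.62 CPM. Leaving out each library in turn gave -0.58 to -0.38, and the difference was -0.68 (SE 0.27) in females and -0.29 (SE 0.26) in males. Gm15417, a gene on the opposite strand, shares 116 exon bases with Zbtb7b and stood at 0 to 1.61 CPM; reads of the pair may be mixed, since the strand setting of the counting is not given in the sources used here.

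Bcl6b encodes BAZF, the closest relative of Bcl6, and was the least expressed gene of the set. It lies on chromosome 11 (GRCm38, 70224128 to 70229798, minus strand). Its values were 2.95, 0.387 and 1.99 CPM in female mutants 1, 3 and 6 and 3.23, 2.27 and 2.54 CPM in male mutants 7, 10 and 27. In wild-type females 2, 4 and 5 they were 3.15, 2.04 and 2.47 CPM, and in wild-type males 8, 12 and 13 they were 2.0, 1.91 and 1.24 CPM. The genotypes overlapped over both sexes. The log2 fold change was 0.21 (SE 0.27), or -0.23 (SE 0.35) in females and 0.63 (SE 0.34) in males. Female mutant 3 had 1 count of Bcl6b, which is under the floor of 3 counts, and without it the difference in females was -0.06 (SE 0.28).

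Zbtb16 and Zbtb7a had log2 fold changes near 0 that turned to -0.07 each when library totals replaced TMM. Zbtb16 encodes PLZF, a factor of innate-like T cells and stem cells that glucocorticoids induce, and averaged 45.9 ± 4.82 CPM in mutants and 45.6 ± 4.35 CPM in wild-type mice (SD, n = 6 each). Its mutants ran from 41.7 to 55.2 CPM (median 44.4), and its wild-type mice from 39.9 to 52.0 CPM (median 45.6). The highest value belonged to female mutant 6, and the log2 fold change of Zbtb16 (chromosome 9, 48654297 to 48836222, minus strand) was 0.01 (SE 0.09), with a range of -0.06, without that mouse, to 0.06 when each library was left out. Zbtb7a encodes LRF, a repressor of fetal globin genes and a regulator of lymphoid lineage choice, from chromosome 10 (81135220 to 81152995, plus strand). It had 131 to 164 CPM in mutants (median 149) and 133 to 168 CPM in wild-type mice (median 142), with a log2 fold change of 0.02 (SE 0.08).

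The remaining repressor, Zbtb33, showed how much female mutant 3 can move a mean. Zbtb33 encodes Kaiso, which binds methylated CpG sites as well as its sequence motif and recruits NCoR; the gene lies on the X chromosome (38189793 to 38197046, plus strand). It stood at 42.0, 76.7 and 47.0 CPM in female mutants 1, 3 and 6 and at 45.6, 38.4 and 39.6 CPM in male mutants 7, 10 and 27. The wild-type females 2, 4 and 5 had 45.6, 38.5 and 42.9 CPM, and the wild-type males 8, 12 and 13 had 42.3, 45.3 and 45.0 CPM. Apart from female mutant 3, the mutants reached no higher than 47.0 CPM and the wild-type mice no higher than 45.6 CPM. The log2 fold change was 0.12 (SE 0.14) with all libraries and -0.02 (SE 0.07) without female mutant 3. In females it was 0.34 (SE 0.19), and 0.07 (SE 0.10) without that mouse.

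The 198 counts behind the Zbtb33 value of female mutant 3 give an exact 95% interval of 66.4 to 88.1 CPM, above every other library. In the same library the share of mitochondrial counts was 31.6%, and its part in this value was not tested. Tmem255a, on the opposite strand, shares 474 exon bases, or 9.25% of the exon length, with Zbtb33. It had 42.6 CPM in female mutant 3 and 21.5 to 39.3 CPM in the other 11 libraries.

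The corepressor gene Bcor had a lower mean in mutants, by about 1 SD of either genotype. Bcor joins a variant Polycomb repressive complex that carries Pcgf1 and Kdm2b, and its gene lies on the X chromosome (12036740 to 12160355, minus strand). It stood at 40.5, 35.2 and 48.4 CPM in female mutants 1, 3 and 6 and at 45.8, 35.5 and 41.6 CPM in male mutants 7, 10 and 27. The wild-type females 2, 4 and 5 had 44.5, 47.6 and 56.5 CPM, and the wild-type males 8, 12 and 13 had 43.9, 52.0 and 40.0 CPM. Of the mutants, 2 of 6 were below the lowest wild-type mouse and the others lay within the wild-type range. The means were 41.2 ± 5.33 CPM in mutants and 47.4 ± 6.00 CPM in wild-type mice, with a log2 fold change of -0.19 (SE 0.11), or -0.15 (SE 0.09) without female mutant 3.

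Bcorl1, the homologue of Bcor that binds the corepressor CtBP (X chromosome, 48341358 to 48408049, plus strand), overlapped between genotypes. Its mutants ran from 22.4 to 36.0 CPM (median 29.1) and its wild-type mice from 24.1 to 34.8 CPM (median 27.1). The mutant range enclosed the wild-type range, and the log2 fold change was 0.03 (SE 0.11), or -0.01 (SE 0.10) without female mutant 3 and -0.05 with library totals in place of TMM.

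**Figure D2:**
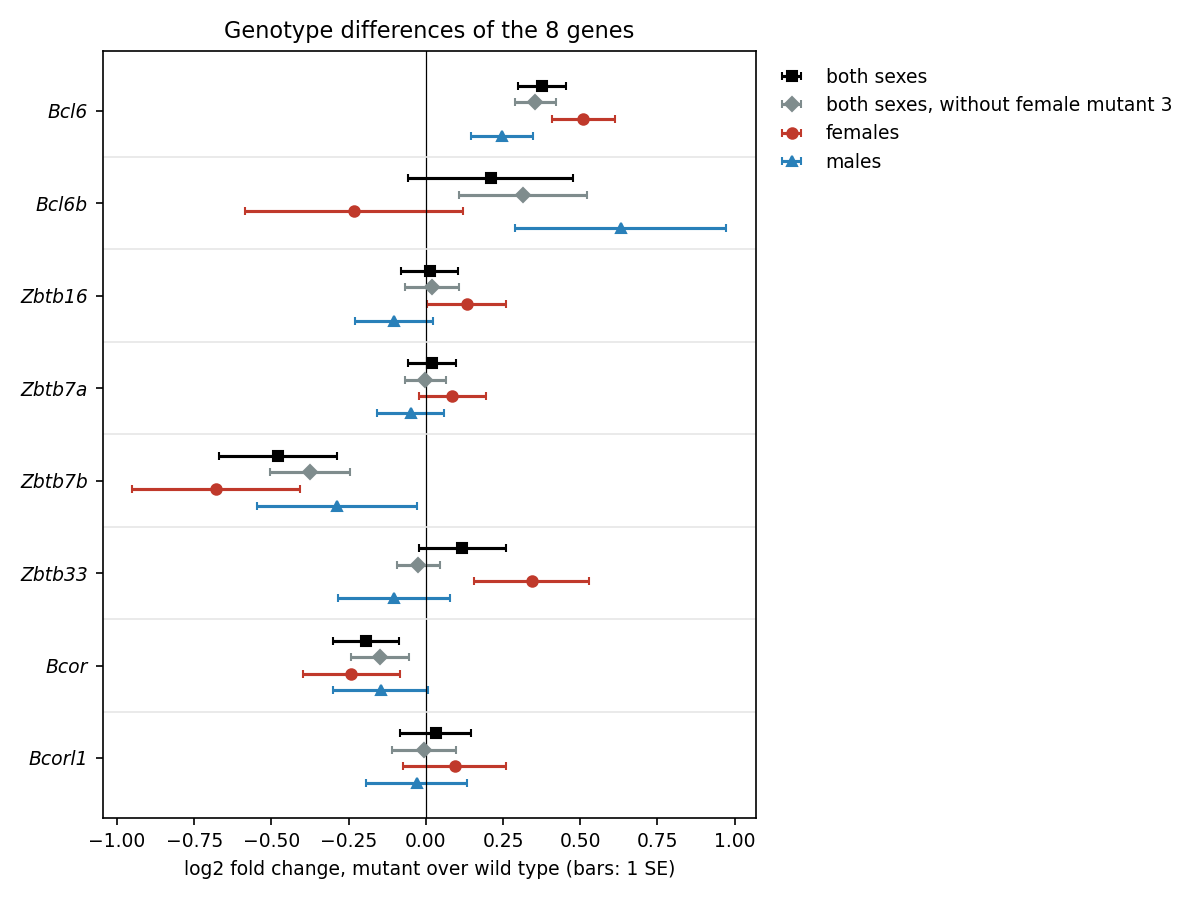
Log2 fold change of each gene, mutant over wild type (horizontal axis), over both sexes with all libraries and without female mutant 3, and within each sex; bars give 1 SE. Bcl6 is above 0 in each fit (0.25 to 0.51), Zbtb7b is below 0 in each, and Zbtb33 crosses 0 from 0.12 with all libraries to -0.02 without female mutant 3.

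Whether the genotype difference itself varied with sex was tested for the 7 genes other than Bcl6, since Bcl6 was chosen in females too. With edgeR, 0 of the 7 passed at an adjusted p of 0.05 and 0 of all tested genes were called, and at an unadjusted p under 0.05 the test held 0 of the 7 against 7.67% of all genes. The largest differences, females minus males on the log2 scale, were -0.86 for Bcl6b (edgeR adjusted p = 0.555) and 0.45 for Zbtb33 (edgeR adjusted p = 0.555). Without female mutant 3 the log2 fold changes of Zbtb33 were 0.07 in females and -0.10 in males, and those of Bcl6b were -0.06 in females and 0.63 in males. The differences of the other 5 genes ran from -0.39 for Zbtb7b (edgeR adjusted p = 0.640) to 0.24 for Zbtb16 (edgeR adjusted p = 0.587). For Bcl6 the corresponding difference was 0.26 (SE 0.14). DESeq2 called 4 genes (0.0222%) and limma-voom called 0, and 0 of the 8 were among them.

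The comparison of females with males over both genotypes, which played no part in choosing the genes, gave no call in the set. With edgeR's quasi-likelihood test 0 of 8 passed, where 7 genes of all tested (0.0389%) did, and at an unadjusted p under 0.05 the test held 0 of 8 against 1.77% of all genes. DESeq2, with 0.0668% of all genes called, and limma-voom, with 0.0389%, also called 0 of the 8. Zbtb33, Bcor and Bcorl1 lie on the X chromosome, and their levels in females and males were near each other. Bcor averaged 45.4 ± 7.28 CPM in females and 43.1 ± 5.61 CPM in males (SD, n = 6 each; log2 fold change 0.08, SE 0.11, or 0.13, SE 0.09, without female mutant 3). Bcorl1 averaged 30.9 ± 4.10 CPM in females and 27 ± 3.64 CPM in males (log2 fold change 0.18, SE 0.11; edgeR adjusted p = 0.897). Zbtb33 averaged 48.8 ± 14.0 CPM in females and 42.7 ± 3.12 CPM in males, and its log2 fold change of 0.16 (SE 0.14) was 0.02 (SE 0.07) without female mutant 3.

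Among the autosomal genes, Bcl6 averaged 36.9 ± 7.49 CPM in females and 34.0 ± 3.31 CPM in males (SD, n = 6 each), with a log2 fold change of 0.10 (SE 0.08; edgeR adjusted p = 0.897). Zbtb7b averaged 10.9 ± 4.32 CPM in females and 13.4 ± 2.72 CPM in males (log2 fold change -0.26, SE 0.19; edgeR adjusted p = 0.897), and the log2 fold change was -0.15 (SE 0.13) without female mutant 3. The other 3 autosomal genes differed by 0.004 for Zbtb16, 0.11 for Zbtb7a and 0.15 for Bcl6b on the log2 scale, and Bcl6b by 0.26 without female mutant 3. Over the 8 genes the edgeR adjusted p ran from 0.897 to 0.997.

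Levels can be compared between genes only per length, and were set on CPM per kilobase of merged exons. On that scale Zbtb7a was the highest, at 21.7 ± 1.83 in mutants and 21.4 ± 1.86 in wild-type mice (SD, n = 6 each). Zbtb16 followed at 8.70 ± 0.911 in mutants and 8.63 ± 0.824 in wild-type mice, and Zbtb33 at 9.41 ± 2.80 in mutants and 8.45 ± 0.523 in wild-type mice. These neighbours did not differ beyond their spread, since Zbtb16 was above Zbtb33 in 3 of 6 mutants and 3 of 6 wild-type mice. Bcl6 stood at 5.99 ± 0.599 in mutants and 4.59 ± 0.252 in wild-type mice, next to Bcor at 4.75 ± 0.615 in mutants and 5.47 ± 0.693 in wild-type mice. Bcor was above Bcl6 in 0 of 6 mutants and in 5 of 6 wild-type mice, so on this length their order was turned between genotypes. That turn is not separate from the Bcl6 difference around which the set was built.

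Below them were Bcorl1 (3.45 ± 0.554 in mutants and 3.34 ± 0.476 in wild-type mice), Zbtb7b (1.78 ± 0.688 in mutants and 2.58 ± 0.312 in wild-type mice) and Bcl6b (0.599 ± 0.271 in mutants and 0.574 ± 0.171 in wild-type mice), all in CPM per kilobase. Bcl6 was above Bcorl1, Bcorl1 above Zbtb7b and Zbtb7b above Bcl6b in 12 of 12 libraries, while the ranges of Bcor and Bcorl1 overlapped in mutants. The place of Bcl6 depends on the length used. Its merged exons span 6700 bases and its longest transcript 3933 bases, and with the longest transcript Bcl6 was above Bcor in 6 of 6 mutants and 5 of 6 wild-type mice.

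**Figure D3:**
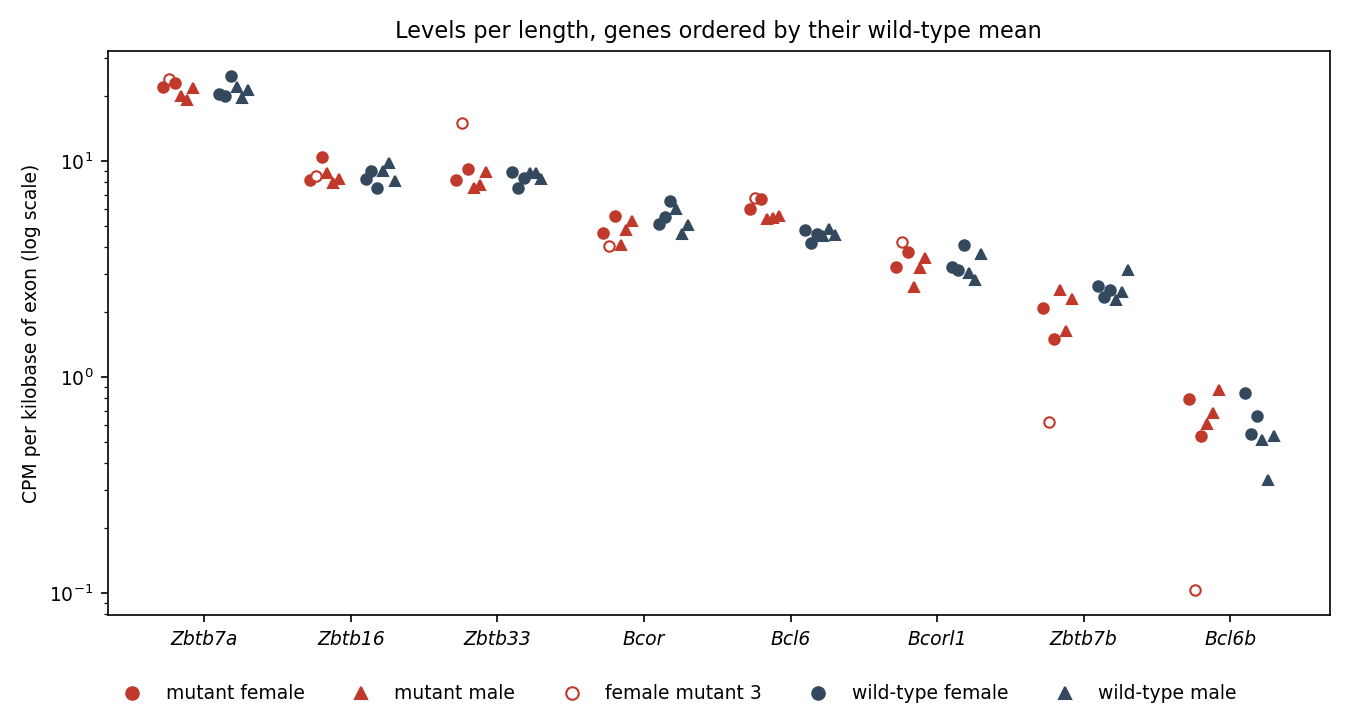
Level of the 8 genes in CPM per kilobase of merged exon (log axis) in each library, mutants in red to the left of wild-type mice in dark points; the open circle is female mutant 3. Zbtb7a is above all others in 12 of 12 libraries. Bcl6 and Bcor change places between mutants and most wild-type mice on this length, but not with the length of the longest transcript.

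Among the 21 pairs of the 7 genes other than Bcl6, Zbtb7a and Bcorl1 had the highest rank correlation over all libraries. Over the 12 libraries Pearson's r of their log2 CPM was 0.81 (permutation p = 0.00178, adjusted over the 21 pairs 0.0374) and Spearman's rho was 0.76 (permutation p = 0.00654, adjusted 0.137). The r was 0.82 without the 2 libraries farthest from the median of Zbtb7a, 0.75 without female mutant 3, 0.82 within mutants and 0.79 within wild-type mice. Without female mutant 3 the highest rho was that of Zbtb7a with Bcor, at 0.74, above the 0.69 of Zbtb7a with Bcorl1. Libraries share the scaling and RNA quality behind both values. Pairings were permuted without regard to genotype or sex, so the p-values do not set covariation within groups apart from differences between groups. The 3 pairs of Bcl6b, Zbtb7b and Zbtb33 rest on female mutant 3: Pearson's r was -0.83 for Zbtb7b with Zbtb33 (permutation p = 0.0648, adjusted 0.320), -0.82 for Bcl6b with Zbtb33 (permutation p = 0.0769, adjusted 0.320) and 0.76 for Bcl6b with Zbtb7b (permutation p = 0.0915, adjusted 0.320). Their rho was -0.31, -0.25 and 0.27 in that order, and without that mouse their r was -0.10, -0.04 and -0.06.

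The genes whose pattern over the 12 libraries was most like that of Bcl6, by Spearman's correlation of log2 CPM among 11055 genes with a mean of at least 5 CPM, were Hspe1, Taf7, Ahi1, Clu and Tgfb2. The correlations were 0.97, 0.93, 0.92, 0.90 and 0.90 in that order, and 0.96, 0.91, 0.89, 0.87 and 0.88 without female mutant 3; they are a description, since Bcl6 itself separated the genotypes. Ahi1, a gene of the primary cilium, averaged 317 ± 29.1 CPM in mutants and 255 ± 29.0 CPM in wild-type mice (SD, n = 6 each). Tgfb2, a secreted growth factor gene, averaged 29.8 ± 4.66 CPM in mutants and 21.9 ± 2.78 CPM in wild-type mice. Clu, a chaperone abundant in astrocytes, averaged 555 ± 41.0 CPM in mutants and 499 ± 17.8 CPM in wild-type mice. Hspe1, the gene of the mitochondrial co-chaperonin, averaged 43.5 ± 9.80 CPM in mutants and 35.8 ± 1.79 CPM in wild-type mice. Taf7, a subunit of the general transcription factor TFIID, averaged 13.4 ± 5.11 CPM in mutants and 9.0 ± 0.922 CPM in wild-type mice.

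The rest of the pathway was described by 7 gene lists. EdgeR, DESeq2 and limma-voom called 0 genes of any list by genotype, and edgeR also called 0 without female mutant 3. At an unadjusted p under 0.05 edgeR held 1 gene each of the zinc finger, corepressor and glucocorticoid lists and 0 of the other 4 lists. The median log2 fold change of all tested genes was -0.01. Of 39 tested genes of the other BTB zinc finger family, 19 were higher and 20 lower in mutants, with a median of 0.00 and a range of -0.35 to 0.19. The 3 of smallest p were Zbtb8a (3.44 ± 0.935 CPM in mutants and 4.66 ± 0.624 CPM in wild-type mice), Zbtb34 (19.8 ± 2.47 CPM in mutants and 22.3 ± 1.18 CPM in wild-type mice) and Zbtb12 (3.41 ± 0.309 CPM in mutants and 2.93 ± 0.477 CPM in wild-type mice). In this family 1 gene, Zbtb8a, was at an unadjusted p under 0.05 in edgeR, against 3.96% of all genes.

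The corepressors and deacetylases that BTB repressors bind were mostly near 0, with 7 of 16 higher, 9 lower and a median of -0.05 (8 higher and 8 lower, with a median of 0.00, without female mutant 3). Tbl1xr1 itself, the gene that carries the mutation, averaged 93.5 ± 2.69 CPM in mutants and 105 ± 7.05 CPM in wild-type mice (SD, n = 6 each; log2 fold change -0.17, SE 0.07; edgeR adjusted p = 0.950). A point mutation need not alter the amount of RNA, so this value does not check the labels. Mta3, the partner of Bcl6 in the NuRD complex of B cells, had a log2 fold change of 0.18 (0.06 without female mutant 3).

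The 9 partners of Bcor in the variant Polycomb complex split into 5 higher and 4 lower (median 0.00; 7 higher and 2 lower without female mutant 3). Rybp, a subunit that binds the Ring proteins, averaged 47.9 ± 10.2 CPM in mutants and 40.0 ± 3.47 CPM in wild-type mice, a log2 fold change of 0.23 (0.15 without female mutant 3). Usp7, a deubiquitinase, had a log2 fold change of 0.19, and 0.03 without that mouse. Pcgf1, the subunit to which Bcor binds, averaged 6.16 ± 1.70 CPM in mutants and 7.31 ± 1.05 CPM in wild-type mice, a log2 fold change of -0.18 (-0.10 without female mutant 3).

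Published targets of Bcl6 repression in lymphocytes or neural cells showed no common direction. Of 26 listed genes 22 were tested, 12 higher and 10 lower, with a median of 0.02 and a range of -0.33 to 0.51; without female mutant 3 they were 15 higher and 7 lower, with a median of 0.07. The 3 of smallest p were Gli2, a transcription factor of Hedgehog signalling (log2 fold change 0.20), the adhesion receptor gene Cd44 (0.23) and Cish, an inhibitor of cytokine signalling (-0.19). Hes5, the Notch target that Bcl6 silences in the mouse cortex, averaged 3.18 ± 1.95 CPM in mutants and 3.18 ± 0.788 CPM in wild-type mice, and Prdm1, its target in B cells, averaged 1.13 ± 0.448 CPM in mutants and 1.28 ± 0.512 CPM in wild-type mice. Hes5 had a log2 fold change of -0.66 in females and 0.69 in males, was at a count of 0 in female mutant 3, where the floor is 1.16 CPM, and had 0.06 over both sexes (0.19 without that mouse). Prdm1 had 0.17 in females and -0.78 in males, and the difference between sexes was not called by edgeR for either gene. Hes5 and Prdm1 were chosen after their values were seen.

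Regulators of Bcl6 transcription or protein turnover split into 4 higher and 5 lower of 9 (median -0.02; 5 higher and 4 lower without female mutant 3). Il6st, the receptor subunit through which STAT3 is activated, had a log2 fold change of 0.11 and Foxo3, an activator of Bcl6 transcription, had -0.11 (-0.04 without female mutant 3). Fbxo11, the ubiquitin ligase that targets BCL6 protein in human B cells, had 0.26, and 0.01 without female mutant 3. Zbtb16 is a glucocorticoid-induced gene, and of 13 genes of glucocorticoid receptors and their responses 4 were higher and 9 lower (median -0.05), or 6 higher and 7 lower without female mutant 3 (median -0.06). Pdk4, a kinase that restrains glucose oxidation, averaged 13.4 ± 2.46 CPM in mutants and 10.9 ± 1.26 CPM in wild-type mice (log2 fold change 0.27). Sgk1, a kinase, averaged 46.1 ± 2.56 CPM in mutants and 52.0 ± 6.38 CPM in wild-type mice (log2 fold change -0.17), and Errfi1, a feedback inhibitor of EGF receptor signalling, had 0.16. Of 6 readers of methylated DNA, the class of Kaiso, 4 were higher and 2 lower (median 0.05). Among them Mbd2 had a log2 fold change of 0.31 that was 0.02 without female mutant 3, and Mbd4 had 0.15 (0.05 without that mouse).

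**Figure D4:**
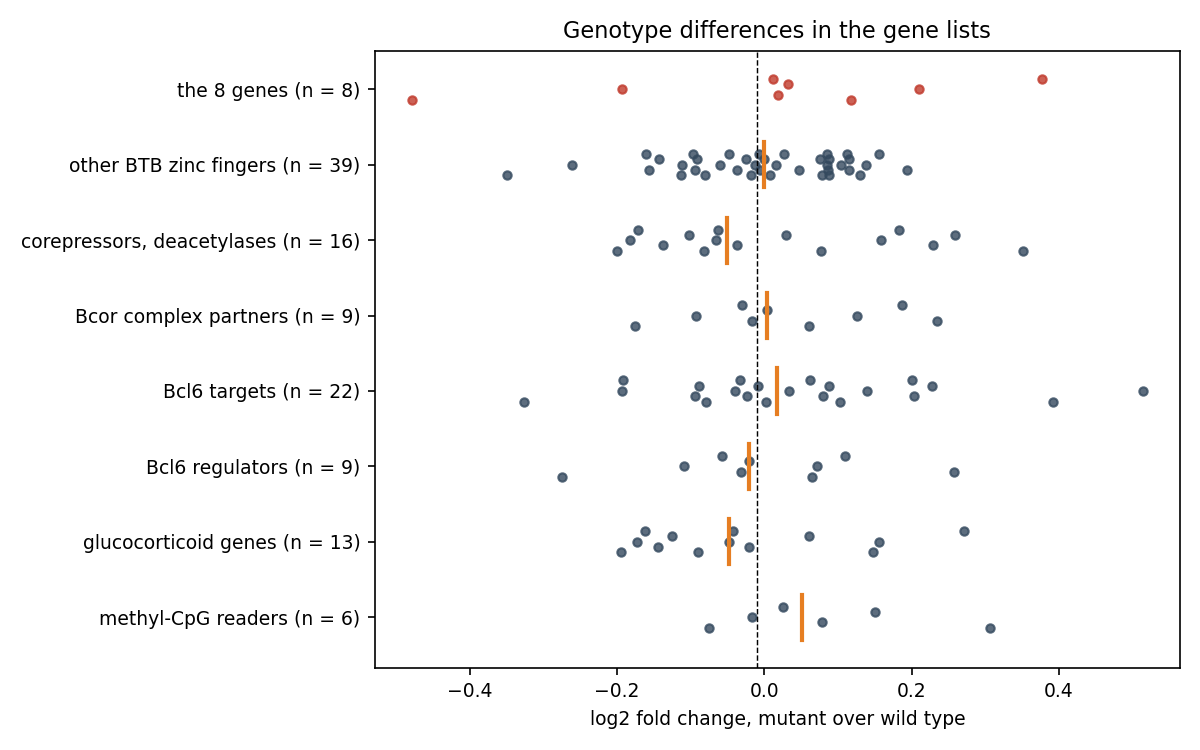
Log2 fold change, mutant over wild type (horizontal axis), of each tested gene in the 7 lists; the orange mark is the median of the list and the dashed line the median of all tested genes (-0.01). The medians of the 7 lists lie between -0.05 and 0.05.

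The cell types in the tissue also moved between libraries. Markers of cortical excitatory neurons were expressed throughout, for 10 of 10 markers. Their summed level was 2845 to 4571 CPM in mutants (median 3675) and 3632 to 4418 CPM in wild-type mice (median 4102). In mutants 8 of 10 were lower (median log2 fold change -0.08), also without female mutant 3 (median -0.11). Genes that mark neurons of the adjoining striatum were lower in mutants for 10 of 10 genes (median log2 fold change -0.77, or -0.86 without female mutant 3). Their summed levels were 215 to 1086 CPM in mutants (median 525) and 429 to 1637 CPM in wild-type mice (median 876). Astrocyte markers were higher for 5 of 8 genes (median 0.16; 5258 to 6802 CPM in mutants and 5507 to 5910 CPM in wild-type mice), and the median summed level was 5416 CPM in mutants and 5666 CPM in wild-type mice. Microglial markers were lower for 7 of 8 genes (median -0.17; 251 to 289 CPM in mutants and 278 to 308 CPM in wild-type mice), or for 6 of 8 without female mutant 3 (median -0.08). Female mutant 3 had the highest astrocyte and striatal sums and the lowest microglial and excitatory sums of the mutants. The part of these differences in the values of Bcl6 and Zbtb7b was not tested.

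Lymphocytes, in which Bcl6, Bcl6b, Zbtb16 and Zbtb7b are best known, left little trace. Of 9 B and T cell markers only Cd4 passed the filter, at 1.55 to 28.3 CPM in mutants (median 4.01) and 3.86 to 16.2 CPM in wild-type mice (median 8.97). The highest value was that of female mutant 3, and the log2 fold change of Cd4 was -0.62, or -1.07 without that mouse (edgeR adjusted p = 0.950 and 0.541). The other 8, which include the defining genes Cd79a, Cd3e and Cd8a, were at most 0.393 CPM in any library, and 0 of them were at 0 in all libraries. Their summed level with Cd4 was 2.35 to 28.7 CPM in mutants and 4.53 to 16.6 CPM in wild-type mice. Endothelial and mural markers, relevant to Bcl6b, were lower for 7 of 8 genes by a median of only -0.02 (325 to 375 CPM in mutants and 322 to 401 CPM in wild-type mice).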

How the data were processed

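Raw read counts per gene and library were deposited by the authors as whole numbers. Per the labels' protocols, RNA was extracted from frozen cortex and libraries were made with a Kapa mRNA kit. The submitters' processing notes name Trimmomatic 0.36, HISAT2 2.1.0, HTSeq 0.11, Cufflinks and GRCm38.p6; which annotation release and strand setting were used is not given in the sources used here. Symbols were taken from GENCODE M21, which matched 54165 of 54232 identifiers. All 12 columns carried a sample name, and 0 were left unused.

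Genes were filtered with filterByExpr over the 4 groups of genotype and sex, scaled by TMM and tested with edgeR 4.0.16 (R 4.3.3) by quasi-likelihood, with sex and genotype as terms, or 1 mean per group for the effects within each sex and their difference. Adjusted p-values are Benjamini-Hochberg over the 18016 tested genes, with a threshold of 0.05, and the test was checked on simulated data. CPM used TMM-scaled totals of the tested genes, and log2 CPM a prior count of 2. Each SE is the absolute log2 fold change divided by the square root of the F statistic of the quasi-likelihood test. Intervals for single libraries are exact Clopper-Pearson and cover counting error only. Between libraries of 1 group counts differed by more than sampling noise (chi-square per degree of freedom 9.47 or more), so each, with an animal number of its own in the labels, was counted as a sample.

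The 8 genes and all lists were chosen with earlier results of these data known. Named genes are the 8, genes that overlap them, the 3 of smallest p in each of 7 lists, and the 5 most like Bcl6; some genes that the rule names are not reported here. Alternatives were DESeq2 1.42.0, limma-voom (limma 3.58.1), other scalings and filters, no sex term, the mitochondrial share as a covariate, and leaving out each library. Fits of DESeq2 and limma-voom without female mutant 3, and list counts and correlations without it, were added after the data were seen.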

Additional observations from a re-analysis of the deposited data

Results flagged for a closer look

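Each of the 8 genes gave 1 group of 6 mutant values and 1 group of 6 wild-type values. In 2 of these groups 1 library stood far from the others of its group. A gap of this size arises by chance in about 1 in 20 groups, so among all groups of the 8 genes such a gap can arise by chance. Each group pooled 3 females and 3 males, which that rate does not take into account. Zbtb33 stood at 76.7 CPM in female mutant 3, the shallow library, and the next mutant had 47.0 CPM, so that the gap was 0.776 of the range of the mutants. Zbtb16 stood at 55.2 CPM in female mutant 6, the most deeply sequenced library, and the next mutant had 46.6 CPM, a gap of 0.637 of the range. Neither cause was tested.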

How the results depend on the processing

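No paired analysis was possible because no animal number occurs in more than 1 group. Counts of genes called by genotype over both sexes were 1 as reported, 29 with DESeq2, 0 with library totals in place of TMM, 2 with the mitochondrial share as a covariate, 0 to 2 when each library was left out, and 53 with DESeq2 without female mutant 3. In females they were 0 as reported, 6 with DESeq2, 2 with no filter and 15 with DESeq2 without female mutant 3. In males they were 0 as reported, 4 with DESeq2, 0 to 1 when each library was left out, and without female mutant 3 they were 16 with DESeq2 and 1 with limma-voom. The difference between sexes gave 0 as reported, 4 with DESeq2 with or without female mutant 3, 1 with no filter and 0 to 1 when each library was left out. The comparison of females with males gave 7 as reported, 12 with DESeq2, 13 with DESeq2 without female mutant 3 and 7 to 8 when each library was left out. The causes were not tested. With library totals the median over all genes went to -0.08 for genotype, -0.21 for genotype in females and -0.11 for sex. Over both sexes Zbtb16, Zbtb7a and Bcorl1 were then at -0.07, -0.07 and -0.05 and Bcl6 at 0.29; relative to the median Bcl6 was at 0.37, against 0.39 with TMM, and the other 3 were above the median with both. By sex, Bcl6, Zbtb16, Zbtb7a and Bcor were then below 0, at -0.01, -0.10, -0.003 and -0.02, and above the median by 0.10, 0.01, 0.11 and 0.09. The depth of female mutant 3 limits Bcl6b and Zbtb7b most.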
